A study of Mus musculus with 56 samples.

Results

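Transcripts of 10 enzymes and cofactors that build fatty acids and triglycerides were followed over a day in mouse gastrocnemius, a calf muscle. The members are Acly, Acaca, Acacb, Fasn, Thrsp, Me1, Elovl6, Scd1, Scd2 and Gpam. They were chosen by name, as rows of the expression table whose Entrez identifier maps to those symbols. All 10 were found among the 19072 genes of the table, and all 10 were among the 12025 genes tested, those whose CPM (defined below) averaged 1 or more. The mice were C57BL/6J females, 9 weeks old at collection, housed under a cycle of 12 h light and 12 h dark. After 7 days with chow at all hours they had 7 days of food by day only (DRF, daytime-restricted feeding) or by night only (NRF, nighttime-restricted feeding). NRF was the study's reference, and no group without food restriction was analysed here. The labels do not give the hours of food within the light or dark phase. Muscle was taken every 4 h from ZT0 to ZT24 (zeitgeber time, ZT, counts hours from lights on), with 4 libraries in each of the 14 groups. The labels do not state whether each library is a separate animal, so p-values measure the spread between these libraries.

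Fatty acids are built in the cytosol from citrate that leaves the mitochondrion. Acly cleaves citrate to acetyl-CoA, Acaca carboxylates it to malonyl-CoA, and Fasn links malonyl units into palmitate with NADPH that Me1 helps to supply. Elovl6 lengthens the chain, Scd1 and Scd2 put in a double bond, and Gpam attaches the first fatty acid to glycerol 3-phosphate. In liver and fat these genes are known to respond to insulin and sugar through the factors SREBP-1c (from Srebf1) and ChREBP (from Mlxipl). In muscle, malonyl-CoA made by Acacb is best known as a brake on fatty acid oxidation at the mitochondrial outer membrane. Adipocytes make the same enzymes in quantity, so fat in a piece of muscle can contribute to these transcripts.

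The 56 libraries held 28173235 to 36183625 recovered reads. A CPM value below is a gene's read count per 1000000 of the library size that the authors used. The muscle fibre markers Ckm, Acta1 and Myh4 were abundant in every library, with a median of 24731, 46038 and 57509 CPM in DRF and 20979, 38530 and 53796 CPM in NRF. White adipocyte transcripts were present in all 56 libraries. Their 11 markers summed to 170 to 829 CPM in DRF (median 331) and to 194 to 708 CPM in NRF (median 321). Fabp4 had the highest median of these markers, 192 CPM in DRF and 178 CPM in NRF, and made up a large part of the sum. It ranged over 98.1 to 337 CPM in DRF and 109 to 293 CPM in NRF. Whether its reads came only from fat was not tested. Adipoq, the adipocyte hormone adiponectin, ranged over 4.04 to 76.8 CPM in DRF and 4.08 to 44.2 CPM in NRF. The 5 brown adipocyte markers summed to 163 to 387 CPM in DRF and 158 to 295 CPM in NRF, nearly all of it Cox8b (156 to 381 CPM in DRF and 153 to 287 in NRF). Ucp1 was at 0 in 34 of 56 libraries and Elovl3 in 8, while Cidea and Pparg were at 0 in none. Ucp1, Cidea and Elovl3 averaged under 1 CPM, so the brown sum follows Cox8b and gives no measure of brown fat. Schwann cell markers summed to 99.6 to 1130 CPM in DRF and 121 to 850 CPM in NRF. In such pieces a change in the number of cells of a type and a change in RNA per cell cannot be told apart.

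Per length of transcript the members fell into a high and a low set. Mean levels per kilobase of exon, over all 56 libraries, were 99.4 CPM for Me1, 80.8 for Scd1, 73.6 for Gpam and 39.5 for Acacb. The other members stood at 12.3 CPM per kilobase for Thrsp, 11.6 for Fasn, 8.36 for Scd2, 7.78 for Acly, 2.83 for Acaca and 1.29 for Elovl6. Several neighbours in this order did not differ beyond their spread. Gpam was above Scd1 in 28 of 56 libraries and Fasn above Scd2 in 32 of 56. The carboxylase Acacb stood above Thrsp in 55 of 56 libraries, and Acly above the other carboxylase, Acaca, in 56 of 56.

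The members differed widely in how much libraries of 1 group scattered. The within-group SD of log2(CPM + 1) was 0.92 for Fasn, 0.91 for Scd1, 0.81 for Elovl6, 0.56 for Acly, 0.55 for Thrsp, 0.46 for Acaca and 0.39 for Scd2. Each of these 7 lay above the 90th percentile of the tested genes, whose median SD was 0.17. Me1 (0.30), Acacb (0.21) and Gpam (0.19) scattered less. Fasn spanned 38.4-fold over the 56 libraries, and Gpam 2.59-fold. Library 1 of DRF at ZT16 held the highest value of 6 of the 10 members (Fasn, Acaca, Acly, Scd1, Elovl6 and Thrsp). Its adipocyte score was the second highest of all libraries, at 1.12. The adipocyte score is the mean over the 11 white adipocyte genes of log2(CPM + 1) minus each gene's own mean.

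**Figure D1:**
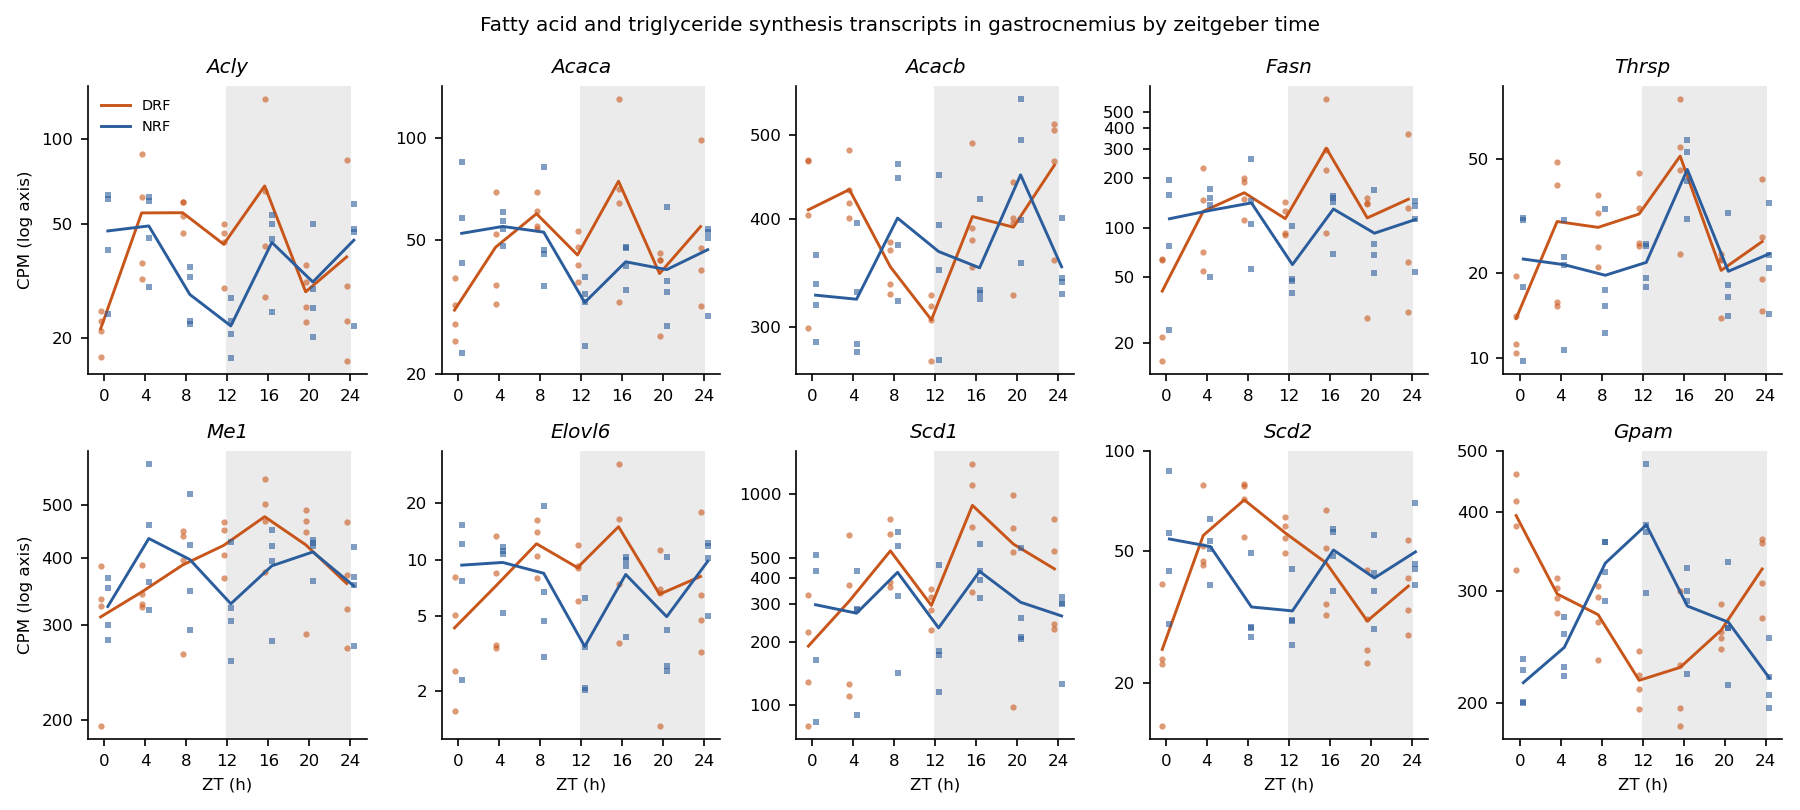
CPM on a log axis against zeitgeber time for the 10 members, with DRF as orange circles and NRF as blue squares (1 point a library, 4 per group), lines through the group means and the dark phase in grey. Gpam runs in opposite directions in DRF and NRF with little scatter, while Fasn, Scd1 and Elovl6 spread widely within groups.

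No member differed between DRF and NRF in its average level over the day. The limma test called 0 of 10 members after Benjamini-Hochberg adjustment over all tested genes, with 0 at an unadjusted p under 0.05 and 0 with voom weights, where 15.9% of all tested genes were called. The largest estimates were 0.44 ± 0.24 log2 units for Scd1 (SE, adjusted p = 0.201) and 0.29 ± 0.24 for Fasn (adjusted p = 0.439), both DRF minus NRF. The estimate for Gpam was -0.07 ± 0.05 (SE, adjusted p = 0.365), and with recovered totals as library sizes it was -0.15 with an adjusted p of 0.0371. The median estimate of the members was 0.18, and that of all tested genes -0.0014.

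At single times the regimens differed in 4 of the 70 member-by-time comparisons, and 3 of those 4 were in Gpam. At ZT0 2 of 10 members were called, against 1.85% of all tested genes. At ZT12 and at ZT24 it was 1 of 10 each, against 3.5% and 5.56% of all tested genes. At ZT4, ZT8, ZT16 and ZT20 limma called 0 of 10, also with voom weights, where all tested genes gave 0.973%, 0.208%, 10.8% and 2.96%. Unadjusted p-values under 0.05 at those times came from 2 members at ZT4, 2 at ZT8, 1 at ZT16 and 0 at ZT20. With 4 libraries a group, the SE of a difference at 1 time was 0.14 log2 units for Gpam but 0.62 for Fasn, so smaller differences in Fasn were not detectable.

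Gpam (gene 14732, GRCm38.p6 chr19:55067635-55127319) codes for the mitochondrial acyltransferase that commits fatty acids to glycerolipids. It was the member with the firmest pattern, high around dawn in DRF and around dusk in NRF. At ZT0 it stood at 380.3, 417, 459 and 324 CPM in DRF, against 200.5, 226, 200.4 and 235 CPM in NRF. At ZT4 the libraries gave 304, 314, 293 and 277 CPM in DRF, against 274, 228, 257 and 221 CPM in NRF. At ZT8 they gave 234, 306, 294 and 269 CPM in DRF, against 322, 359, 289 and 359.5 CPM in NRF. The DRF libraries were all above the NRF ones at ZT0 and ZT4, without a call at ZT4 (limma adjusted p = 0.412). At ZT8 the groups overlapped with the higher values in NRF. At ZT12 the Gpam values were 241, 196, 221 and 211 CPM in DRF, against 298, 476, 382 and 372 CPM in NRF. At ZT16 they were 184, 229, 300.5 and 197 CPM in DRF, against 289, 326, 222 and 301 CPM in NRF. At ZT20 they were 243, 287, 253 and 259 CPM in DRF, against 263, 213, 334 and 263 CPM in NRF. Every DRF library was below every NRF library at ZT12, while at ZT16 and ZT20 the groups overlapped. At ZT24, the clock time of ZT0 a day later, Gpam stood at 309, 272, 358 and 364 CPM in DRF, against 220.0, 254, 196 and 206 CPM in NRF, and the groups were again apart with DRF higher.

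The DRF minus NRF difference of Gpam was 0.86 ± 0.14 log2 units at ZT0 (SE, limma adjusted p = 0.000141), -0.80 ± 0.14 at ZT12 (0.000891) and 0.57 ± 0.14 at ZT24 (0.00767). A cosine curve of 24 h fitted to each regimen gave Gpam a peak at ZT1.57 in DRF and at ZT11.7 in NRF. Peak and trough of the curve lay 0.70 log2 units apart in DRF and 0.72 in NRF, and both rhythm tests were passed (adjusted p = 3.85e-06 in DRF and 1.91e-06 in NRF). The curves differed by clock time with an adjusted p of 2.15e-08. Each of these Gpam calls held in all 56 fits that left out 1 library.

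The starts of Gpam are shown because its daily course had the smallest adjusted p among the members for a difference between the regimens. RefSeq promoter windows of GRCm38.p6, 250 bases before to 50 after a start, give Gpam 2 starts, and the reads here do not separate them. Capitals mark CCAAT (NF-Y box) or its reverse complement in the first window, at chr19:55127189-55127488 on the minus strand, and GGGCGG (GC box) or its reverse complement in the second, at chr19:55099428-55099727 on the minus strand.
Gpam first start: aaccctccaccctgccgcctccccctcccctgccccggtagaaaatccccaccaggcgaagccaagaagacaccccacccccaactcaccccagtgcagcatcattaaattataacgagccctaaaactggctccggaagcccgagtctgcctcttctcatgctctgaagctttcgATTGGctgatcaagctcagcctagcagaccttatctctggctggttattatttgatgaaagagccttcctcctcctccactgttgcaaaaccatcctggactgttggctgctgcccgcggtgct
Gpam second start: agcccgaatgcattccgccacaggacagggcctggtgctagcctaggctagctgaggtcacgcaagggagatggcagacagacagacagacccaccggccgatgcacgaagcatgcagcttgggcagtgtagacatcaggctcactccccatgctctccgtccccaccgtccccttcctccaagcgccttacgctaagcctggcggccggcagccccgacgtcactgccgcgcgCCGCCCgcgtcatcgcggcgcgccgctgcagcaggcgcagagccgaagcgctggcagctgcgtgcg
Windows were in the table for 8 of the 10 members, 10 windows in all. The NF-Y box was in 6 of these 10 windows and in 37.4% of all 32851 windows, and the GC box in 3 of 10 and in 35.7%. The E-box CACGTG was in 0 of 10 windows and 7.15% of all, and the sterol response element TCACNCCAC in 0 of 10 and 1.24% of all. Both strands were searched, and a match or its absence describes these letters in this window and nothing further.

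Scd2 (gene 20250, chr19:44293676-44306864) codes for a stearoyl-CoA desaturase that introduces the double bond of oleate. In DRF its mean was higher at ZT4 than at ZT0 and highest at ZT8. At ZT0 Scd2 stood at 14.8, 39.7, 23.6 and 22.8 CPM in DRF, against 30.02, 56.6, 43.3 and 87.2 CPM in NRF. At ZT4 Scd2 stood at 78.97, 51.6, 45.5 and 46.5 CPM in DRF, against 50.7, 39.5, 53.6 and 62.2 CPM in NRF. The Scd2 values at ZT8 were 78.2, 55.03, 79.7 and 71.7 CPM in DRF, against 29.4, 29.2, 49.3 and 27.6 CPM in NRF. DRF was low at ZT0, with 1 library inside the NRF range, and at ZT8 every DRF library was above every NRF library. At ZT12 Scd2 gave 54.7, 59.3, 63.2 and 49.2 CPM in DRF, against 30.8, 26.1, 44.1 and 30.97 CPM in NRF. At ZT16 Scd2 stood at 66.4, 34.5, 31.9 and 51.01 CPM in DRF, against 37.7, 48.2, 56.9 and 58.2 CPM in NRF. The Scd2 values at ZT20 were 31.1, 25.1, 43.8 and 22.99 CPM in DRF, against 29.1, 55.96, 37.9 and 42.7 CPM in NRF. The groups were apart at ZT12 with DRF higher, without a call (limma adjusted p = 0.0796), and overlapped at ZT16 and ZT20. At ZT24 the values were 27.9, 41.4, 54.1 and 33.1 CPM in DRF, against 69.4, 39.5, 45.5 and 44.1 CPM in NRF, with much overlap.

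The difference at ZT0 was -1.05 ± 0.27 log2 units (SE, limma adjusted p = 0.0233). That call was lost without library 1 of DRF at ZT0 (adjusted p = 0.179), without library 2 of NRF at ZT0 (0.0826) and without library 4 of NRF at ZT0 (0.169). At ZT8 the difference was 1.08 ± 0.27 (adjusted p = 0.0784), which passed with the adipocyte score as a covariate (0.0359). Scd2 passed the rhythm test in DRF, where its fitted curve spanned 1.29 log2 units or 2.44-fold and was highest at ZT9.17 (adjusted p = 2.49e-05). In NRF the fitted values were 0.52 log2 units and ZT22.9 (adjusted p = 0.188). The test that the curves were equal by clock time gave an adjusted p of 0.000144, and no fit without 1 library ended that call.

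Acly (gene 104112, chr11:100476352-100528000) codes for ATP citrate lyase, the entry of mitochondrial carbon into fatty acids. Its window is shown because Acly was the third member whose rhythm differed by clock time. It lies at chr11:100527951-100528250 on the minus strand, and capitals mark CCAAT and GGGCGG or their reverse complements.
Acly: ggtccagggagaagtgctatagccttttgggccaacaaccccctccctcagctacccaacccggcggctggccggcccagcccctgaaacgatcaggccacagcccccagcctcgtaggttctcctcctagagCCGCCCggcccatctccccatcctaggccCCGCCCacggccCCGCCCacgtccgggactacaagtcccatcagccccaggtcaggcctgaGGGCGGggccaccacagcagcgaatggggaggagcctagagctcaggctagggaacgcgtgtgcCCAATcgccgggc
At ZT0 Acly stood at 17.2, 24.8, 21.2 and 22.9 CPM in DRF, against 24.2, 63.4, 40.7 and 61.2 CPM in NRF. The Acly values at ZT4 were 88.3, 36.6, 32.1 and 62.3 CPM in DRF, against 30.2, 62.3, 60.1 and 44.7 CPM in NRF. ZT8 gave Acly values of 59.8, 53.7, 46.5 and 59.6 CPM in DRF, against 35.4, 22.9, 32.7 and 22.4 CPM in NRF. The DRF libraries were low and close together at ZT0 and all above the NRF libraries at ZT8, without a call at ZT8 (limma adjusted p = 0.458). At ZT12 Acly gave 30, 43.5, 50.04 and 46.7 CPM in DRF, against 22.8, 20.6, 27.6 and 16.97 CPM in NRF. The Acly values at ZT16 were 138, 41.9, 27.8 and 65.3 CPM in DRF, against 24.6, 53.9, 44.2 and 49.97 CPM in NRF. ZT20 gave Acly values of 22.8, 36.02, 25.6 and 31.5 CPM in DRF, against 20.1, 50.3, 29.6 and 25.5 CPM in NRF. All DRF libraries were above the NRF ones at ZT12, without a call at that time (limma adjusted p = 0.145). Library 1 of DRF at ZT16 was the highest of all 56. At ZT24 the Acly values were 22.9, 83.8, 16.5 and 30.4 CPM in DRF, against 58.8, 47.04, 48.1 and 21.97 CPM in NRF, so 1 DRF library stood far above the other 3 and the groups overlapped.

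The fitted Acly curve was highest at ZT10.3 in DRF and spanned 1.01 log2 units there, against ZT0.32 and 0.71 log2 units in NRF. The rhythm test was passed in DRF (limma adjusted p = 0.0169) and missed in NRF (0.216), and the curves differed by clock time (0.0137). Without ZT0 the difference was lost (adjusted p = 0.105), as was the rhythm in DRF (0.142). A test of any difference among times in place of the cosine gave an adjusted p of 0.0546 for the difference.

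The carboxylase transcripts had different courses. Acaca (gene 107476, chr11:84129635-84401651) makes the malonyl-CoA used for synthesis. At ZT0 Acaca stood at 25.1, 38.6, 28.2 and 31.97 CPM in DRF, against 23.2, 85.3, 42.7 and 58 CPM in NRF. ZT4 gave Acaca values of 69.2, 32.3, 36.7 and 51.97 CPM in DRF, against 47.9, 60.4, 53.9 and 57.05 CPM in NRF. At ZT8 Acaca stood at 54.02, 60.9, 54.9 and 69.3 CPM in DRF, against 46.8, 45.4, 82.3 and 36.5 CPM in NRF. The groups overlapped at each of these times, with a low DRF group at ZT0. At ZT12 Acaca gave 37.5, 47.5, 53.3 and 42.1 CPM in DRF, against 32.8, 34.6, 38.8 and 24.3 CPM in NRF. ZT16 gave Acaca values of 131, 64.2, 32.7 and 70.7 CPM in DRF, against 35.6, 47.5, 47.2 and 41.9 CPM in NRF. At ZT20 Acaca stood at 26.02, 45.6, 43.6 and 43.7 CPM in DRF, against 27.8, 62.6, 35.05 and 37.8 CPM in NRF. Library 1 of DRF at ZT16 again stood far above the rest. At ZT24 Acaca gave 40.8, 99.1, 31.8 and 47.4 CPM in DRF, against 53.8, 52.7, 50.8 and 29.8 CPM in NRF. The rhythm tests were missed in DRF (limma adjusted p = 0.152) and in NRF (0.388), with fitted peak-to-troughs of 0.53 and 0.51 log2 units. Over the fits that left out 1 library the DRF value ran from 0.0356 to 0.26.

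Acacb (gene 100705, chr5:114146321-114250761), the isoform bound to the mitochondrial outer membrane, was high around ZT0 in DRF. At ZT0 Acacb stood at 468, 404, 467 and 299 CPM in DRF, against 288, 363, 336 and 317 CPM in NRF. At ZT4 Acacb stood at 432, 479.9, 400.5 and 417 CPM in DRF, against 396, 329, 280.4 and 286 CPM in NRF. The Acacb values at ZT8 were 327, 336, 376 and 368 CPM in DRF, against 321, 373, 446 and 463 CPM in NRF. Every DRF library was above every NRF library at ZT4, without a call at that time (limma adjusted p = 0.156). At ZT12 Acacb gave 326, 317, 305 and 274 CPM in DRF, against 393, 449.5, 275 and 349 CPM in NRF. At ZT16 Acacb stood at 352, 489.5, 378 and 390.1 CPM in DRF, against 422, 323, 331 and 328 CPM in NRF. The Acacb values at ZT20 were 442, 401, 327 and 396 CPM in DRF, against 356, 494, 399 and 550.4 CPM in NRF. The DRF group had its lowest mean at ZT12. At ZT24 Acacb gave 506, 358, 466 and 516 CPM in DRF, against 342, 401, 327 and 338 CPM in NRF, where 3 of 4 DRF libraries were above all NRF libraries. The fitted DRF curve was highest at ZT23.8 and spanned 0.40 log2 units (adjusted p = 0.0142), and the rhythm in NRF was not called (0.19 log2 units, adjusted p = 0.591). Without ZT24 the DRF rhythm gave an adjusted p of 0.0839. The difference by clock time had an adjusted p of 0.0736, and of 0.0119 with a 12 h harmonic added. Over the fits that left out 1 library it ran from 0.028 to 0.13.

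Fasn (gene 14104, chr11:120805958-120825166) codes for fatty acid synthase, which makes palmitate. At ZT0 Fasn stood at 15.6, 63.5, 21.7 and 64.6 CPM in DRF, against 23.9, 194, 77.6 and 157 CPM in NRF. At ZT4 Fasn stood at 229.7, 71.3, 54.4 and 147 CPM in DRF, against 50.2, 151, 171 and 137 CPM in NRF. The Fasn values at ZT8 were 148, 189.7, 112 and 200.2 CPM in DRF, against 144, 106, 258 and 56.4 CPM in NRF. The regimens overlapped at each of these times, with wide scatter in most of the groups. At ZT12 Fasn gave 90.7, 93.4, 144 and 125 CPM in DRF, against 48.8, 47.9, 102 and 40.2 CPM in NRF. At ZT16 Fasn stood at 599, 223, 92.7 and 295 CPM in DRF, against 69.2, 150.5, 155 and 144 CPM in NRF. The Fasn values at ZT20 were 28.5, 151, 140.1 and 138 CPM in DRF, against 53.5, 169, 68.2 and 79.5 CPM in NRF. Library 1 of DRF at ZT20 was far below the other 3 of its group. At ZT24 Fasn gave 61.7, 370.5, 30.8 and 131 CPM in DRF, against 136, 113, 145 and 54.1 CPM in NRF. Fasn had the largest fitted peak-to-trough of the members in DRF, 1.44 log2 units or 2.71-fold with a peak at ZT12.7 (limma adjusted p = 0.0386), against 0.35 log2 units in NRF (adjusted p = 0.903). The DRF call was lost in 10 of the 56 fits that left out 1 library (adjusted p up to 0.0936, without library 1 of DRF at ZT0), with recovered totals (0.0595), without a filter on low genes (0.0553), with quantile normalization (0.051) and without ZT0 (0.357). The difference between the regimens by clock time was not called (adjusted p = 0.181).

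Thrsp (gene 21835, chr7:97412933-97417550), known as Spot 14, codes for a nuclear and cytosolic protein tied to lipogenesis. At ZT0 Thrsp stood at 11.3, 14.1, 10.4 and 19.4 CPM in DRF, against 9.79, 30.6, 17.8 and 31.1 CPM in NRF. ZT4 gave Thrsp values of 49.05, 15.3, 15.8 and 40.7 CPM in DRF, against 10.8, 22.7, 30.6 and 21.2 CPM in NRF. At ZT8 Thrsp stood at 32.3, 24.6, 21 and 37.4 CPM in DRF, against 17.4, 12.2, 33.3 and 15.3 CPM in NRF. The DRF group was low at ZT0 and the regimens overlapped at all 3 times. At ZT12 Thrsp gave 24.7, 25.4, 33.7 and 44.6 CPM in DRF, against 25.3, 17.8, 24.7 and 19.1 CPM in NRF. ZT16 gave Thrsp values of 81.2, 45.6, 23.2 and 55.01 CPM in DRF, against 30.9, 53.1, 58.3 and 41.8 CPM in NRF. At ZT20 Thrsp stood at 13.8, 22.3, 22.1 and 23.2 CPM in DRF, against 16.4, 32.3, 14.1 and 18.1 CPM in NRF. Both regimens had their highest mean at ZT16, 51.2 ± 24.01 CPM in DRF and 46.01 ± 12.2 in NRF (SD, n = 4 each). At ZT24 Thrsp gave 18.9, 42.5, 14.6 and 26.7 CPM in DRF, against 23.1, 20.7, 35.01 and 14.4 CPM in NRF. The rhythm was called in DRF (peak ZT12.7, peak-to-trough 1.00 log2 units, limma adjusted p = 0.0177) and not in NRF (peak ZT16.3, 0.76, adjusted p = 0.251), and by clock time the curves did not differ by test (0.371).

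Me1 (gene 17436, chr9:86581363-86695914), the cytosolic malic enzyme, yields NADPH. At ZT0 Me1 stood at 336, 325, 195 and 386 CPM in DRF, against 300.4, 281, 351 and 366 CPM in NRF. At ZT4 Me1 stood at 329, 342, 324 and 387 CPM in DRF, against 320.2, 459, 597 and 359.8 CPM in NRF. The Me1 values at ZT8 were 397, 449, 265 and 439.5 CPM in DRF, against 524, 422, 347 and 294 CPM in NRF. The regimens overlapped at each of these times. At ZT12 Me1 gave 449.9, 366, 404 and 466 CPM in DRF, against 258, 306, 322 and 428 CPM in NRF. At ZT16 Me1 stood at 504, 376, 467 and 559.5 CPM in DRF, against 280.5, 394, 451 and 419.5 CPM in NRF. The Me1 values at ZT20 were 289, 489.6, 467 and 445 CPM in DRF, against 432, 362, 425 and 421 CPM in NRF. The highest DRF mean lay at ZT16. At ZT24 Me1 gave 272, 466, 322 and 372 CPM in DRF, against 419, 274, 356 and 368 CPM in NRF. Its rhythm was called in DRF (peak ZT14.7, peak-to-trough 0.51 log2 units, limma adjusted p = 0.0192), and the fitted NRF curve was nearly flat (0.05 log2 units, adjusted p = 0.983). The DRF call was lost without ZT0 (adjusted p = 0.0619), on log2 of the deposited value plus 1 (0.0543), for any difference among times (0.0954) and with adipocyte and myelin scores as covariates (0.0666).

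Elovl6 (gene 170439, chr3:129532386-129638495), the elongase that takes palmitate to stearate, was the lowest member. At ZT0 Elovl6 stood at 1.55, 8.11, 2.55 and 5.09 CPM in DRF, against 2.27, 12.2, 7.69 and 15.3 CPM in NRF. ZT4 gave Elovl6 values of 13.5, 3.52, 3.38 and 8.48 CPM in DRF, against 5.21, 11.1, 10.7 and 11.7 CPM in NRF. At ZT8 Elovl6 stood at 14.01, 10.5, 7.96 and 16.2 CPM in DRF, against 6.71, 4.71, 19.4 and 3.04 CPM in NRF. The regimens overlapped at all 3 times. At ZT12 Elovl6 gave 5.99, 9.32, 11.97 and 9.04 CPM in DRF, against 2.06, 2.02, 6.27 and 3.42 CPM in NRF. ZT16 gave Elovl6 values of 32.5, 7.41, 3.59 and 16.6 CPM in DRF, against 3.85, 10.3, 9.30 and 9.92 CPM in NRF. At ZT20 Elovl6 stood at 1.29, 11.3, 6.62 and 6.94 CPM in DRF, against 2.69, 10.4, 4.22 and 2.53 CPM in NRF. At ZT12 only 1 NRF library reached into the DRF range. At ZT24 Elovl6 gave 3.22, 18.1, 4.76 and 6.50 CPM in DRF, against 12.2, 11.8, 10.2 and 4.98 CPM in NRF. Neither rhythm was called (limma adjusted p = 0.0673 in DRF and 0.356 in NRF), and the difference by clock time was missed (0.065). Over the fits that left out 1 library, the DRF value ran from 0.0234 to 0.136 and that of the difference from 0.0292 to 0.116.

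Scd1 (gene 20249, chr19:44394450-44407709), the main desaturase of liver and fat, scattered about as much as Fasn. At ZT0 Scd1 stood at 129, 331, 79.8 and 222 CPM in DRF, against 82.9, 516, 164 and 433 CPM in NRF. ZT4 gave Scd1 values of 639, 126, 111 and 370.5 CPM in DRF, against 89.8, 286, 434 and 281 CPM in NRF. At ZT8 Scd1 stood at 382, 644, 361 and 764 CPM in DRF, against 329, 662, 569 and 142 CPM in NRF. The regimens overlapped at each of these times. At ZT12 Scd1 gave 227, 283, 354 and 324 CPM in DRF, against 116, 180.0, 461 and 172 CPM in NRF. ZT16 gave Scd1 values of 1386, 698, 343 and 1104 CPM in DRF, against 429.6, 391, 577 and 323 CPM in NRF. At ZT20 Scd1 stood at 98.4, 532, 993 and 693 CPM in DRF, against 258, 554, 205 and 211 CPM in NRF. The highest mean was that of DRF at ZT16, 883 ± 458 CPM, against 430.3 ± 107 CPM in NRF (SD, n = 4 each), and the groups overlapped. At ZT24 Scd1 gave 243, 760.3, 228 and 537 CPM in DRF, against 306, 324, 302 and 126 CPM in NRF. No rhythm was called (limma adjusted p = 0.101 in DRF and 0.872 in NRF). Scd1 and Scd2 are near copies, and each had 1 library of 56 whose recovered count was not within 0.02 of a whole number, so a small part of their reads may be shared.

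Over the 10 members, 7 passed the rhythm test in DRF, where 48.7% of all tested genes did, and 1 (Gpam) passed it in NRF, where 15.1% did. With 10 members, neither count stood far from its background. The fitted peak-to-trough was larger in DRF in 9 of 10 members. Its median was 1.00 log2 units in DRF and 0.51 in NRF, against 0.26 and 0.16 over all tested genes. A fitted peak-to-trough also grows with scatter, and 7 members lay above the 90th percentile of within-group SD. The part of scatter in these medians was not tested. In DRF 8 members had a fitted peak between ZT9 and ZT15, while Gpam and Acacb peaked near ZT0. Among the 8 were Acaca, Elovl6 and Scd1, whose rhythm in DRF was not called. Neither the count of 8 nor that of larger peak-to-troughs was set against the share of all tested genes. The rhythm differed by clock time in 3 of 10 members (Gpam, Scd2 and Acly), where 13.1% of all tested genes differed.

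**Figure D2:**
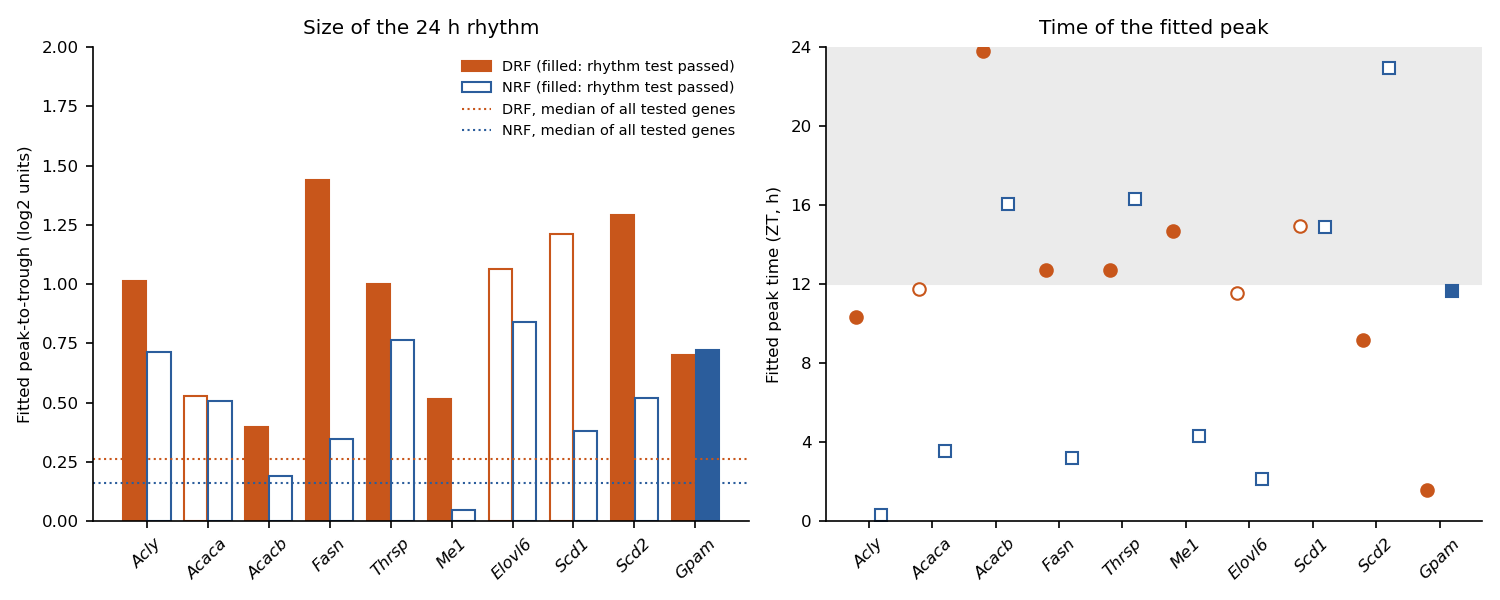
Fitted 24 h peak-to-trough in log2 units (left) and fitted peak time in ZT hours (right) for the 10 members, with DRF in orange left of NRF in blue. Filled marks passed the rhythm test, dotted lines are the medians over all tested genes (0.26 in DRF and 0.16 in NRF), and grey is the dark phase; 7 DRF marks and 1 NRF mark are filled.

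ZT0 and ZT24 are the same clock time. The mean at ZT24 was above that at ZT0 in 9 of 10 members in DRF and in 5 of 10 in NRF, against 53.5% and 47.1% of all tested genes, and this difference was not tested. Fasn averaged 148 ± 154 CPM at ZT24 and 41.4 ± 26.3 at ZT0 in DRF, against 112 ± 40.9 and 113 ± 76.8 in NRF (SD, n = 4 each). The DRF group at ZT0 had the lowest mean of all 14 groups in 7 of 10 members, and the DRF group at ZT16 the highest in 7. Neither count was set against the share of all tested genes. The DRF groups at ZT0 and ZT16 also held the lowest and the highest mean adipocyte score of all 14 groups, -0.65 and 0.52. The myelin score, made in the same way from the Schwann cell markers, was 0.87 at ZT24 in DRF, the highest of the 14 group means, and -0.09 at ZT0 in DRF. The adipocyte score also differed between these times in DRF, with a mean of -0.65 at ZT0 (-0.948 to -0.345) and 0.32 at ZT24 (-0.075 to 0.798). In NRF its means were -0.21 at ZT0 and -0.24 at ZT24. The part of the Schwann cell or the adipocyte transcripts in the step between ZT0 and ZT24 was not tested. The part of the adipocyte transcripts in these rhythms is addressed by the fit with the score as a covariate, given below. Without ZT0 the count of members rhythmic in DRF was 3, with Fasn, Acly, Me1 and Thrsp no longer called.

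Food was given in opposite phases of the day, so the curves were also compared after NRF was moved by 12 h. After this shift 1 of 10 members differed, Thrsp (limma adjusted p = 0.0109), where 45.8% of all tested genes differed. Scd2 had an adjusted p of 0.0621, Gpam of 0.165 and Acly of 0.587, and a test that was missed does not show that the curves were alike. With the library totals recovered here as sizes, the shifted curves of Gpam (0.0179) and Scd2 (0.0382) also differed. The Thrsp call was lost with the adipocyte score as a covariate (0.0993), with that and the myelin score (0.126) and without ZT0 (0.0568). Side by side, Gpam averaged 217 CPM at ZT12 in DRF and 215 CPM at ZT0 in NRF. It averaged 395 CPM at ZT0 and 326 CPM at ZT24 in DRF, against 382 CPM at ZT12 in NRF. At ZT20 in DRF and ZT8 in NRF, hour 8 of the phase without food, Gpam averaged 261 and 333 CPM. At ZT8 in DRF and ZT20 in NRF, hour 8 of the phase with food, Gpam averaged 276 and 268 CPM and Scd2 71.2 and 41.4 CPM. Thrsp averaged 51.2 CPM at ZT16 in DRF and 21.3 CPM at ZT4 in NRF, hour 4 of the phase without food.

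**Figure D3:**
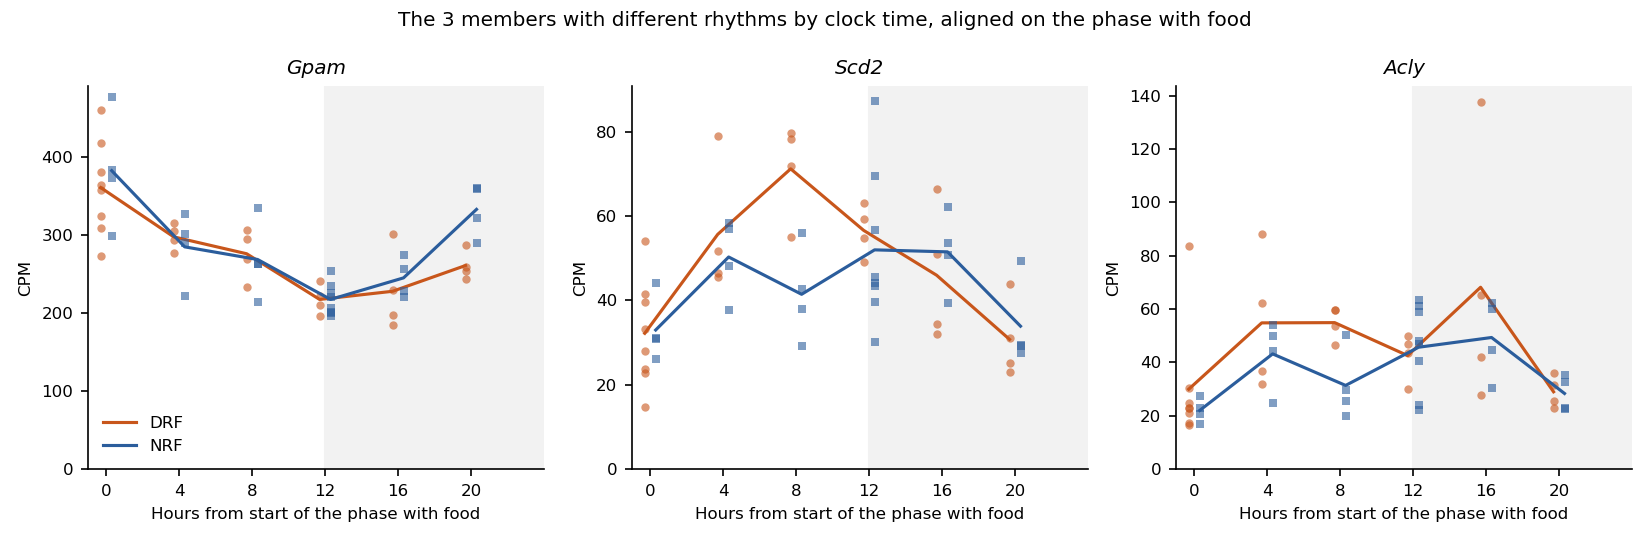
CPM of Gpam, Scd2 and Acly against hours from the start of the phase with food, so that ZT0 and ZT24 of DRF and ZT12 of NRF stand at 0 (points are libraries, lines are means, grey is the phase without food). At hour 12 Gpam averages 217 CPM in DRF (ZT12) and 215 and 219 CPM in NRF (ZT0 and ZT24), while Scd2 is higher in DRF at hour 8. At hour 20 Gpam averages 261 CPM in DRF (ZT20) and 333 CPM in NRF (ZT8).

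The level in the phase with food (ZT4, ZT8 and ZT12 in DRF, and ZT16, ZT20 and ZT0 with ZT24 in NRF) was set against the level in the phase without. In DRF 1 of 10 members differed, Scd2, which was higher with food by 0.80 ± 0.15 log2 units (SE, limma adjusted p = 8.63e-05), where 28.1% of all tested genes were called. In NRF 1 of 10 differed, Gpam, which was lower with food by a difference of -0.30 ± 0.07 (adjusted p = 0.00539), where 8.43% of all tested genes were called. The DRF difference of Gpam was -0.08 ± 0.07 and not called (adjusted p = 0.462). Between the regimens the fed minus fasted difference was called for 0 of 10 members, also with voom weights, with 3 at an unadjusted p under 0.05, where 23.3% of all tested genes were called. The smallest adjusted p of that comparison was that of Scd2, 0.0661, and 8 of the 56 fits without 1 library called it.

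Within groups, libraries richer in adipocyte transcripts were richer in several members. The slope on the adipocyte score, with all 14 group means in the fit, was positive and called for 5 of 10 members, where 4.89% of the tested genes outside the marker list were called in either direction. Scd1 changed by 1.30 ± 0.17 log2 units per unit of score (SE, limma adjusted p = 3.67e-07) and Fasn by 1.07 ± 0.21 (0.000751). The slope of Elovl6 was 0.83 ± 0.19 (0.00708, and 0.0637 with library weights), that of Thrsp 0.66 ± 0.12 (0.000342) and that of Acaca 0.49 ± 0.11 (0.00489). Acly had a slope of 0.45 ± 0.14 with an adjusted p of 0.0554. The slopes of Scd2 (0.26 ± 0.11, adjusted p = 0.12), Me1 (0.13 ± 0.08, 0.326), Acacb (-0.15 ± 0.06, 0.104) and Gpam (-0.11 ± 0.05, 0.197) were not called. The points of such a slope share the library, and the adipocyte cells and the muscle fibres cannot be told apart as the source of a member's reads.

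**Figure D4:**
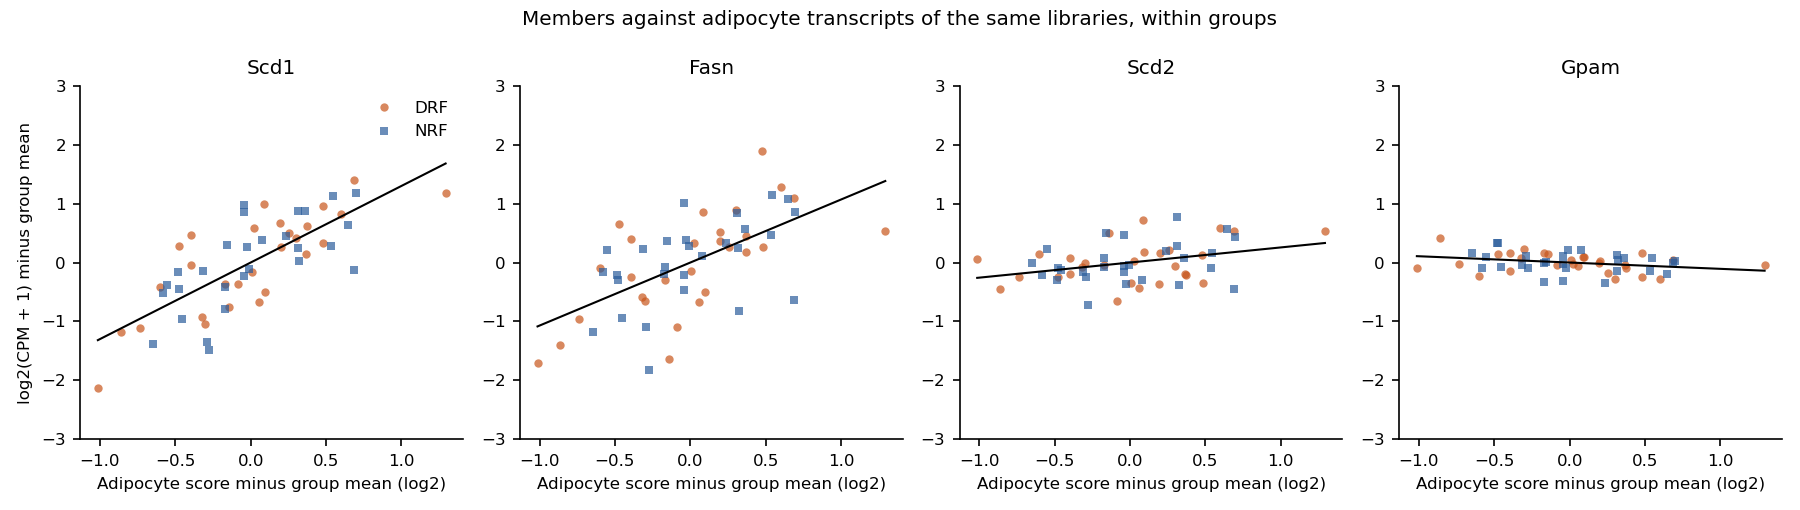
Deviation of log2(CPM + 1) from the group mean for Scd1, Fasn, Scd2 and Gpam against the deviation of the adipocyte score in the same library (56 libraries, DRF as orange circles and NRF as blue squares); the line is the fitted slope, 1.30 for Scd1, 1.07 for Fasn, 0.26 for Scd2 and -0.11 for Gpam. Scd1 and Fasn climb with the score, and Gpam stays level.

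The group means of the adipocyte score differed between times, which was not tested. They ran between -0.65 (ZT0) and 0.52 (ZT16) in DRF and between -0.55 (ZT4) and 0.46 (ZT8) in NRF. Libraries of 1 group also scattered widely, as in DRF at ZT20 (-0.83 to 1.48). Of its 11 genes 0 passed the rhythm test in DRF, where 48.7% of all tested genes did. In NRF 3 of the 11 passed it, where 15.1% did. The rhythm of 2 of the 11 differed by clock time, where 13.1% of all tested genes differed. With the score as a covariate, the rhythm differed by clock time in 7 of 10 members, adding Fasn (limma adjusted p = 0.00553), Acaca (0.00835), Elovl6 (0.00386) and Scd1 (0.045) to Gpam, Scd2 and Acly. Of all tested genes 12.4% differed there. Rhythm in NRF was then called for 5 members, Gpam, Acaca (0.0099), Elovl6 (0.0148), Acly (0.0185) and Scd2 (0.0309), and rhythm in DRF for 8. In that fit 13.5% of all tested genes were called in NRF and 49.1% in DRF. With the covariate the fitted Fasn curve spanned 1.25 log2 units and was highest at ZT11.7 in DRF, against 1.19 log2 units and ZT1.35 in NRF. For Acaca these were 0.49 at ZT10.4 in DRF and 0.85 at ZT2.27 in NRF, and for Elovl6 1.02 at ZT10.5 and 1.43 at ZT1.52. Gpam changed little, with 0.67 at ZT1.43 in DRF and 0.80 at ZT11.8 in NRF. The NRF rhythm of Fasn was not called (adjusted p = 0.0963), and a covariate that varies with time can add to a fitted rhythm as well as take from it.

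A list of 57 other genes of the pathway was counted, of which 50 were tested. Elovl3, Elovl7, Scd3, Scd4, Gpat2, Mogat1 and Mogat2 were under the CPM minimum. On average over the day 4 of 50 were called, all higher in DRF, where 15.9% of all tested genes were called in either direction. Rhythm was called for 27 of 50 in DRF (48.7% of all tested genes) and for 7 in NRF (15.1%). It differed by clock time in 11 (13.1%), and after the 12 h shift in 26 (45.8%). The median fitted peak-to-trough of the list was 0.35 log2 units in DRF and 0.23 in NRF.

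Among the 12 regulators 3 differed in rhythm by clock time. The fitted curve of Srebf1, the gene of SREBP-1c, spanned 0.75 log2 units and was highest at ZT11.9 in DRF, against 0.44 and ZT3.44 in NRF (limma adjusted p = 0.00189). Its mean was highest at ZT12 in DRF (66.7 CPM) and at ZT4 in NRF (59.6 CPM). Srebf2, the cholesterol-side factor, had 0.23 at ZT8.14 in DRF and 0.57 at ZT0.27 in NRF (3.55e-05). Mid1ip1, a partner of Thrsp that activates the carboxylases, reached 47.1 CPM at ZT12 in DRF and 56.4 CPM at ZT12 in NRF, with fitted peaks at ZT10.0 and ZT14.7 (0.0165). Mlxipl, the gene of ChREBP, was rhythmic in DRF (0.34 log2 units, peak ZT4.34, adjusted p = 0.0191) and did not differ by clock time by test (0.479).

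Of the 12 precursor and NADPH genes, 2 differed in rhythm. Mlycd, which degrades malonyl-CoA, spanned 1.26 log2 units with its top at ZT1.14 in DRF and 0.39 at ZT9.36 in NRF (limma adjusted p = 2.05e-05), and was higher in DRF on average by 0.27 (adjusted p = 0.0229). Idh1, the cytosolic isocitrate dehydrogenase, had 0.39 at ZT5.78 in DRF and 0.74 at ZT11.3 in NRF (0.00814). The citrate carrier Slc25a1 averaged 25.9 CPM at ZT16 in DRF and 10.96 CPM at ZT16 in NRF, with no called difference in rhythm (0.148) and a called slope on the adipocyte score (0.72, adjusted p = 0.000204). Of the 11 elongation and desaturation genes tested, 3 differed. The desaturases Fads1 and Fads2 had 0.88 at ZT12.7 and 0.72 at ZT12.0 in DRF, and 0.32 at ZT3.69 and 0.26 at ZT1.21 in NRF (1.55e-05 and 2.75e-05). Hacd3, a dehydratase of elongation, had 0.25 at ZT4.50 in DRF and 0.18 at ZT18.8 in NRF (0.00904).

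In glycerolipid assembly, 3 of 15 genes tested differed in rhythm. Gpat3, the acyltransferase of the endoplasmic reticulum that makes the same bond as Gpam, spanned 1.00 log2 units with its top at ZT23.5 in DRF and 0.36 at ZT12.6 in NRF (limma adjusted p = 9.08e-06). Its means were 7.97 CPM at ZT0 in DRF and 4.15 CPM at ZT0 in NRF. Agpat3 (0.63 in DRF and 0.26 in NRF, adjusted p = 0.0308) and Agpat5 (0.19 and 0.21, 0.025), which add the next acyl chain, also differed. Lpin1, whose product makes diacylglycerol and which also acts in transcription, was rhythmic in DRF (0.86, peak ZT21.8) and in NRF (0.59, peak ZT20.9), with no called difference by clock time (0.432) and a called one after the shift (3.41e-07). The final acyltransferases Dgat1 and Dgat2 were not called rhythmic in either regimen, at adjusted p of 0.0927 and 0.0839 in DRF and 0.223 and 0.625 in NRF, and Dgat1 differed after the shift (0.0335).

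For the 3 members with the widest range of group means, the genes with the most similar course over the 14 group means were found by Pearson's r, given as a description. For Fasn these were Slc25a1 (r = 0.92), Slc25a10 (0.91) and Nsdhl (0.89), of which Slc25a1 and Slc25a10 had called adipocyte slopes (adjusted p = 0.000204 and 8.94e-07) and Nsdhl did not (0.146). For Scd1 they were Tkt (0.92), Retn (0.91) and Cdo1 (0.90). Retn is one of the adipocyte markers, and Tkt and Cdo1 had called slopes on the adipocyte score within groups (0.65, adjusted p = 3.35e-05, and 1.35, 1.35e-19). For Thrsp they were Mrap (0.89), Golga7 (0.86) and Sh2b2 (0.85), with adjusted p-values of that slope of 2.64e-10, 0.731 and 0.0363. Among the members, Fasn ran with Acaca (r = 0.91), Elovl6 (0.84), Scd1 (0.83) and Acly (0.80), and Acly with Scd2 (0.88). The groups share libraries across genes, so these values carry no test.

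In the authors' deposited table of rhythm tests for DRF, 3 of the 10 members had a q-value under 0.05, Scd2 (4.53e-05), Gpam (0.00052) and Acacb (0.0381), as did 2557 of its 16119 rows. In the authors' deposited table for NRF it was Gpam alone (0.000111), and 1154 of 16119 rows. The deposited peak times of Gpam were ZT1.00 in DRF and ZT11.4 in NRF. The authors' deposited relative amplitude, a ratio taken on their compressed scale, was 0.132 for Scd2 in DRF and 0.0496 in NRF, and is not comparable with the folds above.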

How the data were processed

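Gene expression was measured by RNA-seq in 56 gastrocnemius libraries, grouped by feeding regimen and time as the labels give them. The table deposited by the authors is headed TPM, but its values are a score, a log2 of reads per 1000000 divided by gene length and rescaled to a fixed sum per library. The submitters' processing notes name HISAT2, Bowtie2, RSEM and the builds mm10 and GRCm38.p6; for their roles and versions, and for the use of strand, the sources used here state nothing. The deposited rhythm tables hold p-values and q-values, per the file headers. They also hold a deposited relative amplitude, a ratio of amplitude to baseline. The tables named DF and NF were read as DRF and NRF. Over the tested genes with a deposited q-value under 0.05, their peak times lay a median of 0.556 h (DF) and 0.557 h (NF) from the fits of those regimens, against 2.93 h and 2.50 h from the other regimen.

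Read counts were recovered from the score in Python 3.11.15 (numpy 2.4.6). In 1454 genes used to set the scale, 99.2% of values came out within 0.02 of whole reads. Counts were recovered for 17443 of 19072 genes; the other 1629 had too few values to solve. Of the 12025 genes tested, 1395 had counts with decimals, as RSEM assigns shared reads. Libraries held 28173235 to 36183625 reads, and PCR copies among them were not marked. The authors' library sizes were 0.854 to 1.21 of the recovered totals and were used as the main scale.

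The main test was limma 3.58.1 (R 4.3.3) with an intensity trend on log2(CPM + 1), with 14 group means fitted together. Genes whose CPM averaged under 1 were left out. Benjamini-Hochberg adjustment ran over every gene tested, and an adjusted p under 0.05 was a call. A 24 h cosine was fitted per regimen for rhythm. No 2 libraries of a group differed by as little as sampling noise, the smallest chi-square per gene being 10.1. The steps were tested on simulated data. For limma these used the same spread setting for every gene, so members that scatter as widely as Fasn were not covered. Alternatives were other library sizes, pseudocounts, filters, weights, covariates, time points, left-out libraries and a replicate block; 1, with adipocyte and myelin scores together, was chosen after seeing the data.

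The members and lists were chosen with earlier results of these data known. All 10 members are named, with every library's value. From the pathway list, the genes that differed in rhythm by clock time and 8 fixed genes are named, and for the 3 members with the widest range of group means the 3 most similar genes.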

Additional observations from a re-analysis of the deposited data

Results flagged for a closer look

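In 11 of the 140 member groups of 4 libraries, 1 library lay far from the other 3, by Dixon's criterion on CPM. Chance flags about 1 in 20 groups. In DRF these were at ZT20, where library 1 was the lowest for Fasn (28.5 CPM, others 138 to 151), Acaca (26.02, others 43.6 to 45.6) and Thrsp (13.8, others 22.1 to 23.2). The adipocyte score of that library was -0.83. In NRF the low libraries were 69.2 CPM for Fasn at ZT16, 29.8 for Acaca at ZT24, 126 for Scd1 at ZT24, 5.21 for Elovl6 at ZT4, 3.85 for Elovl6 at ZT16 and 362 for Me1 at ZT20. The high NRF libraries were 422 CPM for Acacb at ZT16 and 49.3 CPM for Scd2 at ZT8.

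The daily course differed between DRF and NRF by clock time, by limma's test of the difference itself, for 3 members, with adjusted p-values of 2.15e-08 for Gpam, 0.000144 for Scd2 and 0.0137 for Acly. Among the other genes of the pathway it differed for Srebf1 (0.00189), Srebf2 (3.55e-05), Mid1ip1 (0.0165), Idh1 (0.00814), Mlycd (2.05e-05), Hacd3 (0.00904), Fads1 (1.55e-05), Fads2 (2.75e-05), Gpat3 (9.08e-06), Agpat3 (0.0308) and Agpat5 (0.025).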

How the results depend on the processing

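Counts of members called were recomputed under each alternative, and those that moved by over 1.5 times are given. A percentage in brackets is the share of all tested genes called in that setting. The first brackets of a result hold the values of the main fit. No estimate that was called in the main fit or in the alternative turned round in direction. Direction was not tracked for estimates called in neither. Members differing on average (0, 15.9%) became 1 with recovered totals (29.1%), which was Gpam, and 1 with library weights (22.4%). The latter was Scd1 (0.59, limma adjusted p = 0.0417). Member-by-time calls (4) became 10 with library weights, 7 with the adipocyte covariate, 7 with the myelin covariate and 9 with both. At the 7 times in order, all tested genes gave 8.91%, 4.42%, 0.474%, 11.3%, 20.7%, 5.49% and 10.5% with library weights. The adipocyte covariate gave 2.14%, 1.65%, 0.249%, 1.01%, 16.6%, 4.35% and 11.2%. The myelin covariate gave 1.92%, 0.998%, 0.258%, 1.43%, 10.6%, 2.89% and 6.51%. Both gave 2.11%, 1.86%, 0.241%, 0.881%, 16.5%, 4.20% and 9.97%. Members rhythmic in DRF (7, 48.7%) became 3 without ZT0 (47.3%). Smaller moves took that count to 9 with library weights (53.8%) and with the myelin covariate (46.5%), and to 8 with the adipocyte covariate (49.1%). It was 6 with recovered totals (50.3%), quantile normalization (48.4%), the deposited scale (43.8%), no filter (33.4%) or without ZT24 (40.5%). Those rhythmic in NRF (1, 15.1%) became 5 with the adipocyte covariate (13.5%) and 2 with the myelin covariate (15.3%). They became 5 with both (13.5%) and 2 with a 12 h harmonic added (23.0%). Members differing by clock time (3, 13.1%) became 5 with library weights (21.5%), 7 with the adipocyte covariate (12.4%) and 7 with both (11.3%). Members differing after the 12 h shift (1, 45.8%) became 3 with recovered totals (50.8%), 2 with the myelin covariate (44.9%) and 0 without ZT0 (41.5%). They became 2 with the added harmonic (39.5%) and 2 for any difference among times (36.7%). Members differing between fed and fasted phases in DRF (1, 28.1%) became 3 with library weights (34.8%), the adipocyte covariate (32.3%) or both scores (31.9%). They became 2 with the gene-length trend removed (28.0%), 2 without ZT24 (17.1%) and 2 without ZT0 (32.7%). Members whose fed difference differed between regimens (0) became 2 with recovered totals, 1 with each covariate, 1 with both and 1 without ZT24. The causes were not tested.

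Leaving out 1 library at a time gave 0 to 0 members on average, 3 to 5 calls at single times, 6 to 9 members rhythmic in DRF, 1 to 1 in NRF, 3 to 5 by clock time, 1 to 2 after the shift, 1 to 2 for food in DRF, 1 to 1 in NRF, 0 to 1 between regimens and 5 to 6 with a called adipocyte slope. The replicate block gave 0, 4, 7, 1, 3, 1, 1, 1, 0 and 5 for these results in that order, the counts of the fit without it. The deviations of same-numbered libraries of different groups had a median r of -0.0131 over 364 pairs (-0.674 to 0.683, 120 of them over 0.1). Pairs with different numbers were not set beside them, so whether a shared number links libraries was not tested. The fit with both scores was chosen after seeing the data, and the adipocyte slope has no value in fits that hold that score as a covariate.

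For single genes, 2663 values stayed on their side of the threshold in fits other than those leaving out a library. Another 80 passed newly and 17 no longer passed. Recovered totals moved every gene's DRF minus NRF difference by -0.16 log2 units at ZT12 and ZT16, -0.12 at ZT0 and -0.08 on average, so Gpam at these times is read against that shift. With 4 libraries a group and the scatter of Fasn, Scd1 and Elovl6, a missed test at a single time leaves sizeable differences in these members undetectable.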
